A study of Mus musculus with 6 samples.

Results

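The core circadian clock genes were described in 6 RNA sequencing libraries from mouse cerebral cortex. The 10 genes were listed by name (Npas2, Clock, Arntl, Per1, Per2, Per3, Cry1, Cry2, Nr1d1 and Nr1d2) and matched by symbol, 1 Ensembl identifier each, among the 53379 gene identifiers of the files. All 10 passed the filter on low counts and were tested, among 17221 genes. The libraries labelled Gtf2ird1-/- were replicates 5, 6 and 7 (n = 3), and the wild type libraries were replicates 1, 3 and 4 (n = 3). Gtf2ird1 encodes a transcription factor of the region deleted in Williams syndrome. All mice were C57BL/6 and 2 months old, and the series title describes the cells as Gad2+ neurons. None of the sources used here gives how the mutant allele was made, how the cells were isolated, the sex of the animals or the hour of day at which tissue was taken. Nothing in the labels says that libraries came from separate animals, so p-values measure the spread between these libraries, which may be partly technical.

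The mammalian clock is a transcriptional feedback loop that runs in almost every cell of the body. CLOCK or its paralog NPAS2 pairs with BMAL1, the product of Arntl, and the pair binds E-boxes to switch on the Per and Cry genes, whose proteins return to the nucleus and inhibit it. A second loop couples to the first: the nuclear receptors REV-ERB alpha and beta, from Nr1d1 and Nr1d2, repress Arntl through ROR elements, which the ROR receptors activate. Transcripts of Arntl and Npas2 therefore peak at a different time of day from those of the Per and Nr1d genes. In the forebrain NPAS2 can stand in for CLOCK.

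The elements through which the loop closes are shown in 5 promoters, each of which held a match. The windows come from RefSeq (GRCm38.p6), run from 250 bases before to 50 after an annotated transcription start, and are printed 5′ to 3′ on the strand of the gene. Windows were found for 9 of the 10 genes (13 windows, as some genes have several starts) and not for Per2. Capitals mark the E-box CACGTG, the E-prime box CACGTT, the ROR element core TAGGTCA or TGGGTCA, and the D-box TTATGTAA or TTACGTAA, searched on both strands. No match was found in the windows of Npas2, Clock and Nr1d2, in the first window of Arntl or in the second of Per1. The Cry2 window held an E-prime box and is not printed. No marked matches overlap each other.
Arntl, second of 2 windows (chr7:113207261-113207560, plus strand): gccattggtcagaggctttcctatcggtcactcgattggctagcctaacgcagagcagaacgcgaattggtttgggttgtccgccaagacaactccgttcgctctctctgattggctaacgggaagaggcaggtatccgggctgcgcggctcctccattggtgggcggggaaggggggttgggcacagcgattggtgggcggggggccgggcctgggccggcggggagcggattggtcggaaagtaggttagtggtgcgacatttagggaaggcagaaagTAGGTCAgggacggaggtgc
Per1, first of 2 windows (chr11:69098699-69098998, plus strand): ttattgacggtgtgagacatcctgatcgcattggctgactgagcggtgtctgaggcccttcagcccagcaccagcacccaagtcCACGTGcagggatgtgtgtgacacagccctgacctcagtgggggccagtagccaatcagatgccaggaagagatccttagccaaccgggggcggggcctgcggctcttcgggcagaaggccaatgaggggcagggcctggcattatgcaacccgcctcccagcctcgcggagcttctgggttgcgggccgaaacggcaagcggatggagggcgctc
Cry1 (chr10:85185005-85185304, minus strand): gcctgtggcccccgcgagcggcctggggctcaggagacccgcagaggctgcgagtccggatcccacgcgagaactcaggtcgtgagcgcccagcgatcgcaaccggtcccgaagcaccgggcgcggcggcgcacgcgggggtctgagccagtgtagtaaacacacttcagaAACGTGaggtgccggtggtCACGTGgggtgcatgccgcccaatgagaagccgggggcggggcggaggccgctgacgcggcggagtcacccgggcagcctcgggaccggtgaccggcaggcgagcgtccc
Per3 (chr4:151044616-151044915, minus strand): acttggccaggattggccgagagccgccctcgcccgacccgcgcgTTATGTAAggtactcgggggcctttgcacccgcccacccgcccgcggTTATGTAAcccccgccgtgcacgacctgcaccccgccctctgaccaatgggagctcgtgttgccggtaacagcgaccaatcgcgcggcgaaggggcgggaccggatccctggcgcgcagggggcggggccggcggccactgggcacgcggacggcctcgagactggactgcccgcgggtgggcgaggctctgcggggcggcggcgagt
Nr1d1 (chr11:98775328-98775627, minus strand): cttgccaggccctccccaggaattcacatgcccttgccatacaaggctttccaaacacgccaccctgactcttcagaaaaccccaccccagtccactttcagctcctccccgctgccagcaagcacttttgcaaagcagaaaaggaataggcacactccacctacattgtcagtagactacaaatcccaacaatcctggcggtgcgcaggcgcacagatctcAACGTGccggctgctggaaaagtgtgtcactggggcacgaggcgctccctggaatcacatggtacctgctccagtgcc

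The ROR element core in Arntl began 30 bases after the annotated start, and of the 9 genes it was found in 1, Arntl, against 6.45% of all 32851 windows. An E-box was present in 2 of 9 genes, 166 bases before the start in Per1 and 60 bases before it in Cry1, against 7.15% of all windows. An E-prime box was present in 3 genes, with its first base 79 bases before the start in Cry1, 166 in Cry2 and 28 in Nr1d1, against 4.68% of all windows. Per3 held 2 D-boxes, the element bound by DBP, TEF, HLF and NFIL3, 205 and 158 bases before its start, against 1.06% of windows with at least 1. The cAMP response element TGACGTCA was in none of these 9 genes' windows and in 1.79% of all windows. A gene counted if any of its windows matched, with 13 windows for the 9 genes, while each percentage is of single windows. Gene counts and percentages are therefore not on the same scale. The matches describe the letters of the windows and are not measured binding.

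Total gene counts lay between 13627501 and 30544144 per library. Gtf2ird1 had 40.62 to 49.69 CPM (read counts scaled to library size with TMM factors, the unit of all levels below) in the libraries labelled knockout and 23.35 to 52.68 CPM in wild type. It was not lower under the knockout label, and a count over the whole gene does not check a mutation of unknown position, so the labels stand unchecked, and "knockout replicate" below means a library that carries the knockout label. Markers fitting the title were low beside those of microglia: the 8 microglial markers summed to 23010 to 29070 CPM in the libraries labelled knockout and 22220 to 35630 CPM in wild type. Gad1 had 71.5 to 144.5 CPM and Gad2 59.8 to 120.6 CPM in the libraries labelled knockout, against 42.0 to 168.7 CPM and 29.0 to 106.6 CPM in wild type. Ribosomal RNA took 6.2% of gene counts in knockout replicate 6 and 17.5% in wild type replicate 3, and no other library exceeded 1.51%. In bulk libraries, fewer cells of a type and less RNA per cell cannot be told apart.

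None of the 10 clock genes passed the test between the genotypes. The count was 0 by edgeR's quasi-likelihood test, by DESeq2 and by limma-voom, against 0.00581% of all tested genes called by edgeR, 0.122% by DESeq2 and 0.00581% by limma-voom. At an unadjusted p under 0.05 edgeR had 1 of the 10, Npas2, against 7.25% of all tested genes. Npas2 had the largest fold change of the 10, Clock was the flattest, and all 7 repressor genes had a positive log2 fold change without passing. Positive log2 fold changes made up 46.3% of all tested genes. The groups did not overlap for 1 of the 10, Per3, with all knockout values the higher, against 13% of all tested genes, 6.34% with the libraries labelled knockout higher and 6.68% with them lower.

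**Figure D1:**
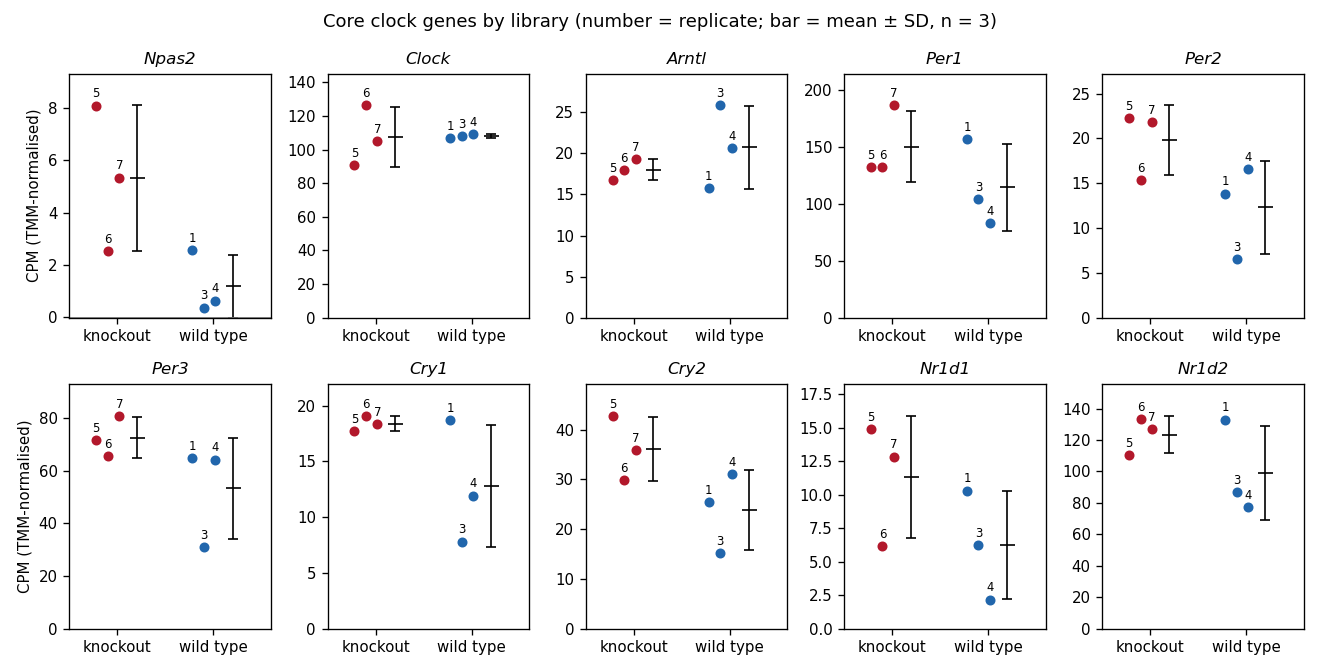
CPM of each core clock gene in every library (numbered points), for the libraries labelled knockout and wild type, with the mean and SD of 3 beside them. Knockout replicate 5 has the highest Npas2 point at 8.09 CPM, and the points of wild type replicates 3 and 4 are the lowest at 0.363 and 0.628 CPM.

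Of the activators, Npas2 was both the rarest transcript and the most variable. Npas2 (ENSMUSG00000026077.15), which encodes the forebrain partner of BMAL1, lies on the plus strand of chromosome 1 (39193731 to 39363236, GRCm38). It had 8.09, 2.52 and 5.34 CPM in knockout replicates 5, 6 and 7, against 2.575, 0.363 and 0.628 CPM in replicates 1, 3 and 4 of wild type. Wild type replicate 1 lay just above knockout replicate 6, so the groups overlapped, and wild type replicates 3 and 4 were the lowest. The wild type values rest on 74, 4 and 11 counts, and the exact Poisson 95% intervals of the last 2 run from 0.0988 to 0.928 and from 0.313 to 1.12 CPM, for counting error only. Its fold on the log2 scale was 2.07 ± 0.74 (SE), at an edgeR adjusted p of 0.637, a fold of 4.21 with a 95% interval from 1.27 to 14.0. Without wild type replicate 1 the log2 fold change was 3.37 (edgeR adjusted p = 0.0561), and without the others in turn it lay between 1.65 and 2.42.

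Npas2 was high and low in nearly the same libraries as astrocyte transcripts. Median levels of oligodendrocyte, oligodendrocyte precursor, endothelial and mural, and pan-neuronal markers were also lowest in wild type replicates 3 and 4. For microglial, GABAergic and glutamatergic markers, wild type replicates 3 and 4 were not together the lowest. The microglial median was lowest in wild type replicate 4 (2401 CPM), followed by knockout replicate 5 (2516 CPM). The glutamatergic median was lowest in wild type replicate 3 (0.906 CPM), followed by wild type replicate 1 (1.98 CPM). The GABAergic median was lowest in wild type replicate 1 (16.8 CPM), followed by wild type replicate 3 (17.7 CPM). The median of 9 astrocyte markers was 246.4, 85.5 and 149.6 CPM in knockout replicates 5, 6 and 7, against 84.1, 22.0 and 6.62 CPM in replicates 1, 3 and 4 of wild type. Knockout replicates 5 and 7 were the highest in both, knockout replicate 6 and wild type replicate 1 lay next to each other in the middle, and wild type replicates 3 and 4 were the lowest. The summed level of the list ran from 3486 to 6233 CPM in the libraries labelled knockout and from 284.2 to 3568 CPM in wild type. All 9 markers had positive log2 fold changes, none passed by edgeR, and none was at 0 in any library. The most abundant, Slc1a2, a glutamate transporter of astrocytes, averaged 3006 ± 880 CPM in the libraries labelled knockout and 959.5 ± 1348 CPM in wild type (SD, n = 3 each). The median of 7 oligodendrocyte markers was 55.6, 28.8 and 57.1 CPM in knockout replicates 5, 6 and 7, against 37.8, 5.89 and 3.20 CPM in replicates 1, 3 and 4 of wild type. For 4 markers of oligodendrocyte precursors it was 30.1, 20.9 and 17.3 CPM in knockout replicates 5, 6 and 7, against 18.6, 1.18 and 6.73 CPM in replicates 1, 3 and 4 of wild type. For 6 endothelial and mural markers it was 27.2, 21.2 and 24.4 CPM in knockout replicates 5, 6 and 7, against 18.2, 9.74 and 3.68 CPM in replicates 1, 3 and 4 of wild type. For 4 pan-neuronal markers it was 26.2, 29.9 and 23.5 CPM in knockout replicates 5, 6 and 7. In replicates 1, 3 and 4 of wild type it was 32.05, 11.9 and 14.3 CPM. Log2 fold changes were positive for 7 of 7, 4 of 4, 5 of 6 and 4 of 4 genes of these lists. None passed by edgeR, and none was at 0 in any library. The summed level ran from 1555 to 1947 CPM in the libraries labelled knockout and from 119.2 to 1830 CPM in wild type for oligodendrocytes, and from 70.5 to 148.6 CPM in the libraries labelled knockout and from 5.53 to 95.2 CPM in wild type for their precursors. For endothelial and mural markers it ran from 129.2 to 209.9 CPM in the libraries labelled knockout and from 52.1 to 141.1 CPM in wild type. For pan-neuronal markers it ran from 177.9 to 369 CPM in the libraries labelled knockout and from 96.3 to 237.1 CPM in wild type. That sum was lower in wild type replicate 1, at 142.8 CPM, than in wild type replicate 4. The part of these cell types in the Npas2 difference was not tested.

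**Figure D2:**
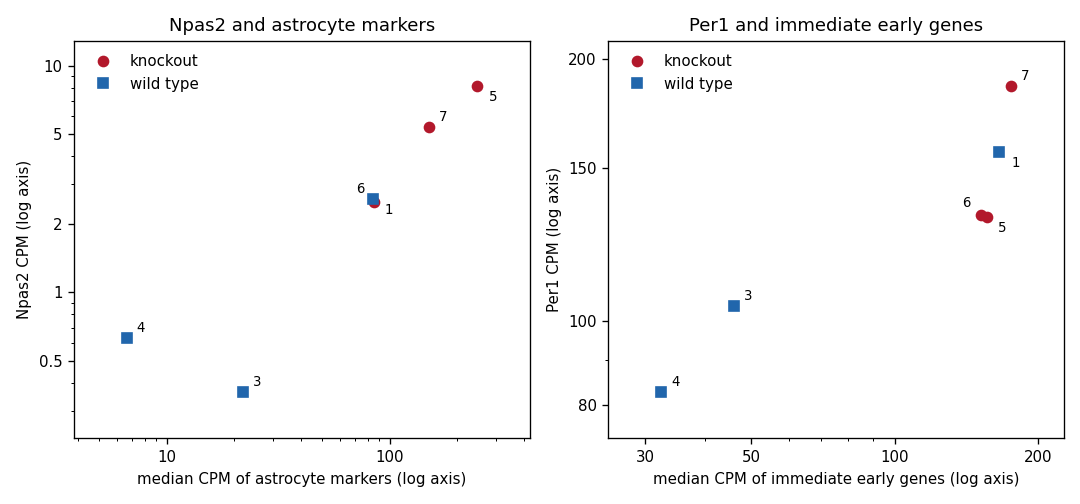
Left, Npas2 CPM against the median CPM of 9 astrocyte markers, and right, Per1 CPM against the median CPM of 8 immediate early genes, on log axes, 1 point per library with its replicate number (circles, knockout label; squares, wild type). Wild type replicate 1 lies beside the knockout points in both panels, and wild type replicates 3 and 4 lie apart at the low end.

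Over the 6 libraries together, Clock itself was the steadiest of the 10. Clock (ENSMUSG00000029238.11, chromosome 5, 76209868 to 76304792, minus strand), which encodes the founding partner of BMAL1, had 90.9, 126.2 and 105.0 CPM in knockout replicates 5, 6 and 7, against 106.7, 108.1 and 109.0 CPM in replicates 1, 3 and 4 of wild type. The wild type values lay within 1.02 times of each other and inside the range of the libraries labelled knockout. The knockout values spanned 1.39 times, more than those of Cry1, Arntl, Nr1d2 and Per3 and less than those of the other members. edgeR put the fold at -0.01 ± 0.15 in log2 (SE, adjusted p = 0.987), and its 95% interval, as a fold, was 0.783 to 1.26. The sign of this value turned in 8 of 16 alternative settings.

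Arntl (ENSMUSG00000055116.8, chromosome 7, 113207465 to 113314126, plus strand), which encodes BMAL1, had 16.8, 18.0 and 19.3 CPM in knockout replicates 5, 6 and 7, against 15.8, 25.8 and 20.6 CPM in replicates 1, 3 and 4 of wild type. The knockout values lay inside the wild type range, and the highest and second highest libraries were wild type replicates 3 and 4, where Npas2 lay below the knockout range. So did 6 of the 7 repressors in wild type replicate 3 and 5 in wild type replicate 4. In wild type replicate 1, Arntl and 3 repressors, Per2, Per3 and Cry2, lay below the knockout range together. Such counts were not made over all tested genes, so they are not read as particular to the clock genes. The log2 fold of Arntl was -0.20 ± 0.21 (SE), with an edgeR adjusted p of 0.768. Its 95% interval, as a fold, was 0.622 to 1.22. Without wild type replicate 3 the log2 fold change was -0.0053, and without wild type replicate 1 it was -0.36.

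The 7 repressor genes had log2 fold changes between 0.32 and 0.85, with a median of 0.51, beside a median of -0.03 over all tested genes. None passed by edgeR, with adjusted p between 0.637 and 0.677, and none had an unadjusted p under 0.05. The sign was positive for all 7 in each of the 16 alternative settings, whose list median ran from 0.33 without wild type replicate 3 to 0.68 without wild type replicate 1. With both libraries rich in ribosomal RNA left out it was 0.40. The median log2 fold change was 1.84 for the markers of astrocytes, 1.47 for oligodendrocytes, 1.29 for their precursors and 1.02 for endothelial and mural cells. It was 0.44 for pan-neuronal markers. The median levels of all these lists were lowest in wild type replicates 3 and 4, and their part in the repressor values was not tested.

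The Period genes encode the proteins that carry the inhibition back to the nucleus. Per1 (ENSMUSG00000020893.17), which also responds quickly to light and to neuronal activity, had 131.7, 132.2 and 186.1 CPM in knockout replicates 5, 6 and 7, against 156.3, 103.9 and 82.7 CPM in replicates 1, 3 and 4 of wild type. Knockout replicates 5 and 6 lay below wild type replicate 1, and wild type replicates 3 and 4 were below all others. The fitted fold was 0.39 ± 0.26 in log2 (SE), at an edgeR adjusted p of 0.672, with a 95% interval of the fold from 0.861 to 2.00. Leaving out wild type replicate 1 gave a log2 value of 0.68, leaving out wild type replicate 4 gave 0.20, and leaving out knockout replicate 7 gave 0.22.

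Immediate early genes, the fast transcriptional response to stimulation, ordered the libraries almost as Per1 did. Their median over 8 genes was 156, 151.5 and 175.6 CPM in knockout replicates 5, 6 and 7, against 165.9, 46.2 and 32.4 CPM in replicates 1, 3 and 4 of wild type. The summed level ran from 1572 to 1610 CPM in the libraries labelled knockout and from 336.3 to 2006 CPM in wild type. Of the 8 genes 7 had positive log2 fold changes, none passed by edgeR, and none was at 0. Their part in the Per1 values was not tested.

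Per2 (ENSMUSG00000055866.9), whose mutation shortens the rhythm of mice, had 22.3, 15.3 and 21.8 CPM in knockout replicates 5, 6 and 7, against 13.8, 6.53 and 16.6 CPM in replicates 1, 3 and 4 of wild type. Knockout replicate 6 lay between wild type replicates 1 and 4, so the groups overlapped. Its fold on the log2 scale was 0.68 ± 0.34 (SE), at an edgeR adjusted p of 0.637, with a 95% interval of the fold from 0.918 to 2.79. Leaving out wild type replicate 3 gave a log2 value of 0.39. Per3 (ENSMUSG00000028957.12), the third paralog, had 71.7, 65.6 and 80.8 CPM in knockout replicates 5, 6 and 7, against 64.8, 31.1 and 64.2 CPM in replicates 1, 3 and 4 of wild type. All knockout values were above all wild type values, but knockout replicate 6 and wild type replicate 1 were close, and wild type replicate 3 stood far below. edgeR put the fold at 0.44 ± 0.28 in log2 (SE, adjusted p = 0.661), and 0.18 without wild type replicate 3.

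The cryptochromes bind the CLOCK and BMAL1 pair and are its strongest inhibitors. Cry1 (ENSMUSG00000020038.10) had 17.7, 19.1 and 18.3 CPM in knockout replicates 5, 6 and 7, against 18.7, 7.79 and 11.9 CPM in replicates 1, 3 and 4 of wild type. The value of wild type replicate 1 lay inside the narrow knockout range and the other wild type libraries below it. In log2 this was a fold of 0.51 ± 0.30 (SE), with an edgeR adjusted p of 0.653. It was 0.27 without wild type replicate 3 and 0.89 without wild type replicate 1. Cry2 (ENSMUSG00000068742.11) had 42.7, 29.8 and 35.9 CPM in knockout replicates 5, 6 and 7, against 25.4, 15.2 and 31.1 CPM in replicates 1, 3 and 4 of wild type. Knockout replicate 6 lay below wild type replicate 4, so the groups overlapped. Exons of Cry2 share 295 bases, 4.67% of their length, with those of D930015M05Rik on the opposite strand, which had at most 0.139 CPM. The fitted fold was 0.59 ± 0.27 in log2 (SE), at an edgeR adjusted p of 0.637, and its 95% interval, as a fold, was 0.973 to 2.34. Without wild type replicate 3 the log2 value was 0.37.

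Among the REV-ERB genes, Nr1d1 varied most. Nr1d1 (ENSMUSG00000020889.11), which encodes REV-ERB alpha, had 14.9, 6.17 and 12.8 CPM in knockout replicates 5, 6 and 7, against 10.3, 6.25 and 2.17 CPM in replicates 1, 3 and 4 of wild type. Knockout replicate 6 lay below wild type replicates 1 and 3, and the wild type values alone spanned 4.75 times. Its fold on the log2 scale was 0.85 ± 0.56 (SE), at an edgeR adjusted p of 0.672. It was 0.44 without wild type replicate 4 and 1.46 without wild type replicate 1. Exons of Nr1d1 share 263 bases, 8.55% of their length, with exons of Thra on the opposite strand. None of the sources used here gives the strand setting of the counting, so reads in that stretch are uncertain. Thra had 81.0, 58.4 and 59.2 CPM in knockout replicates 5, 6 and 7, against 48.9, 26.0 and 57.9 CPM in replicates 1, 3 and 4 of wild type.

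Nr1d2 (ENSMUSG00000021775.11), which encodes REV-ERB beta, had 110.3, 133.1 and 126.7 CPM in knockout replicates 5, 6 and 7, against 132.9, 86.7 and 77.2 CPM in replicates 1, 3 and 4 of wild type. As for Cry1, wild type replicate 1 lay inside the knockout range and the other wild type libraries below it. edgeR put the fold at 0.32 ± 0.22 in log2 (SE, adjusted p = 0.677), and its 95% interval, as a fold, was 0.876 to 1.77. The log2 value was 0.59 without wild type replicate 1 and 0.17 without wild type replicate 4.

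**Figure D3:**
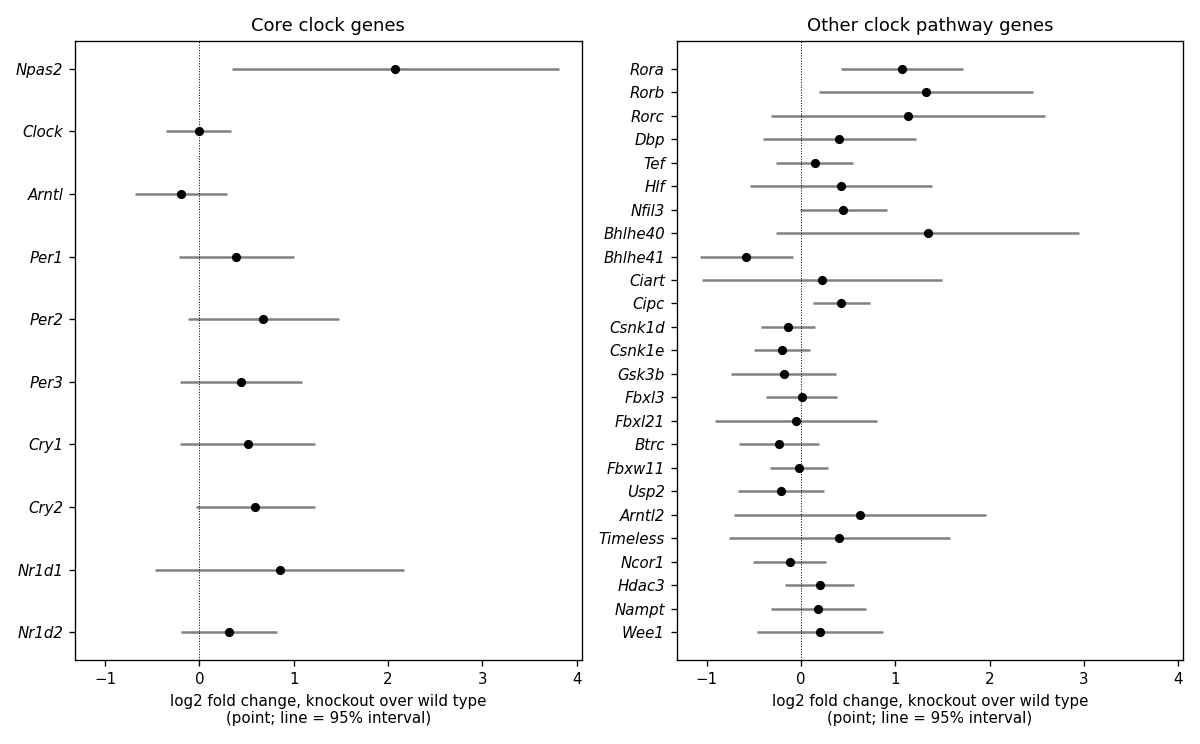
Log2 fold change (knockout label over wild type) with its 95% interval, for the 10 core clock genes (left) and 25 other clock pathway genes (right). All 7 repressors lie right of 0, but their intervals include 0, and Npas2 has the widest interval of the core genes.

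Libraries with the same genotype label differed among themselves. For the clock genes as a list, wild type replicate 1 lay inside the knockout range for 6 of the 10 genes, against 2 for wild type replicate 3 and 3 for wild type replicate 4. Wild type replicate 3 had the lowest level of 5 genes and wild type replicate 4 of 3, and a library labelled knockout had the highest level of 9. These counts were not made over all tested genes, so they describe the 10 genes and are not read as particular to them. Activators and repressors were also averaged as log2(CPM + 0.5). The activator mean was 4.58, 4.26 and 4.53 in knockout replicates 5, 6 and 7, against 4.13, 3.76 and 3.78 in wild type replicates 1, 3 and 4. The repressor mean was 5.44, 5.16 and 5.50 in knockout replicates 5, 6 and 7, against 5.23, 4.39 and 4.69 in wild type replicates 1, 3 and 4. The repressor mean exceeded the activator mean by 0.91 ± 0.06 in the libraries labelled knockout and by 0.88 ± 0.23 in wild type (SD, n = 3 each). Of the activators Npas2 alone was higher on average in the libraries labelled knockout, and the activator mean depends on it. With a prior of 2 CPM in place of 0.5, the activator mean differed by 0.33 in place of 0.56 between the groups.

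**Figure D4:**
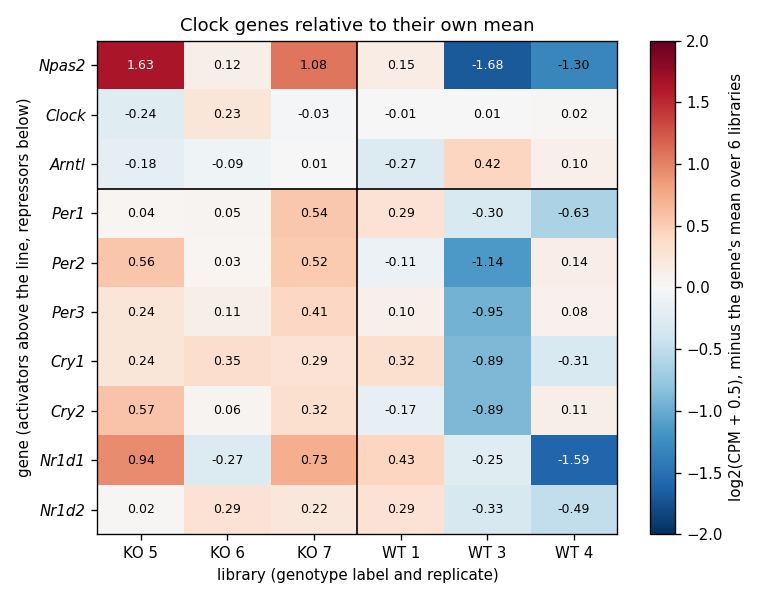
Log2(CPM + 0.5) of each core clock gene minus its own mean over 6 libraries, with activators above the horizontal line and repressors below, and libraries labelled knockout left of the vertical line. Values are mostly positive in knockout replicates 5, 6 and 7 and mostly negative in wild type replicate 3, where Arntl stands out at 0.42.

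Per exon length, Per1 and Nr1d2 were the most abundant clock transcripts and Npas2 the rarest. The mean over the 6 libraries was 23.5 ± 6.52 CPM per kb of merged exons for Per1 and 20.6 ± 4.48 for Nr1d2 (SD, n = 6), and Per1 was the higher in 5 of 6 libraries. Clock followed at 7.84 and Per3 at 6.56 CPM per kb, a pair in this order in 4 of 6 libraries. Cry2 and Cry1 had 4.75 and 4.67 CPM per kb and could not be ordered beyond their spread. Nr1d1, Per2 and Arntl lay together at 2.85, 2.74 and 2.58 CPM per kb, with overlapping ranges. Npas2 was below Arntl in all 6 libraries, at 1.11 CPM per kb in the libraries labelled knockout and 0.248 in wild type. The exon length counts every annotated exon, 13727 bases for Clock, so a gene with long rare isoforms may be placed too low.

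**Figure D5:**
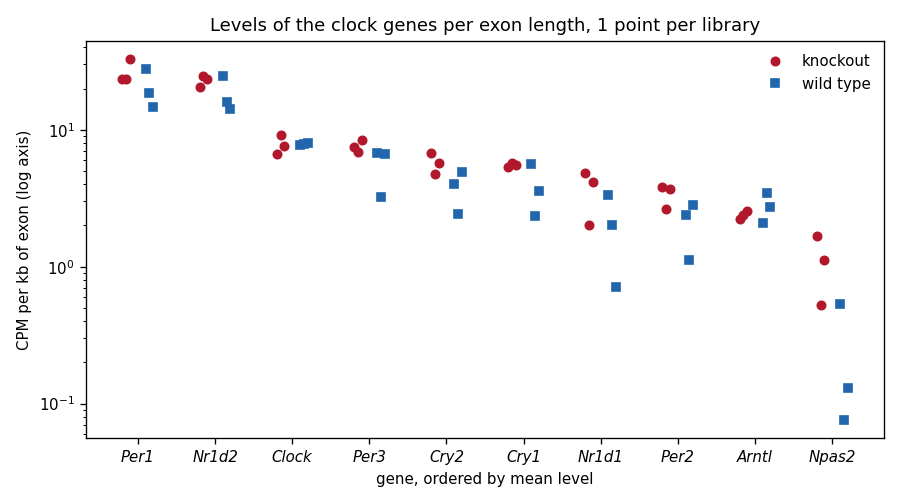
CPM per kb of merged exon length for each core clock gene on a log axis, ordered by the mean over 6 libraries, with 1 point per library (circles, knockout label; squares, wild type). Per1 and Nr1d2 lie between 14.3 and 33.1 CPM per kb, and Npas2 between 0.0757 and 1.69.

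The other genes of the clock pathway were described by a list of 25, all tested. None passed by edgeR, DESeq2 or limma-voom, and 3 higher and 1 lower had an unadjusted edgeR p under 0.05, against 4.48% and 2.77% of all tested genes. Their median log2 fold change was 0.20. The ROR receptors, which activate Arntl through the same elements that REV-ERB binds, had positive values in 3 of 3, with a median of 1.14. The knockout values were above all wild type values for all 3, against 6.34% of all tested genes. Rora had 37.1, 26.3 and 27.3 CPM in knockout replicates 5, 6 and 7, against 19.9, 12.7 and 10.3 CPM in replicates 1, 3 and 4 of wild type. Its lowest knockout value lay above the highest wild type value, and the log2 fold was 1.07 ± 0.28 (SE, edgeR adjusted p = 0.637). Rorb had 40.3, 23.7 and 29.1 CPM in knockout replicates 5, 6 and 7, against 22.3, 5.62 and 8.79 CPM in replicates 1, 3 and 4 of wild type. Knockout replicate 6 and wild type replicate 1 were again close, and edgeR gave a log2 fold of 1.32 ± 0.48 (SE) at an adjusted p of 0.637. Without wild type replicate 1 both passed (edgeR adjusted p = 0.0414 for Rora and 0.0384 for Rorb), in a setting that called 1.85% of all tested genes. Median levels of astrocyte, oligodendrocyte, oligodendrocyte precursor, endothelial and mural, and pan-neuronal markers were lowest in wild type replicates 3 and 4. As for Npas2, Rora and Rorb were lowest there too, and the part of these cell types in the ROR values was not tested.

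Of the further repressors, Cipc and Bhlhe41 had the smallest p, in opposite directions. Cipc, which encodes an inhibitor of CLOCK, had 26.5, 26.7 and 27.5 CPM in knockout replicates 5, 6 and 7, against 20.4, 19.4 and 20.2 CPM in replicates 1, 3 and 4 of wild type. The values were tight within each group and did not overlap, at a log2 fold of 0.43 ± 0.13 (SE, edgeR adjusted p = 0.637). The value stayed between 0.41 and 0.57 in all 16 alternatives, with an edgeR, DESeq2 or limma-voom adjusted p of at least 0.203. Bhlhe41, which encodes the E-box repressor DEC2, had 57.4, 74.9 and 79.9 CPM in knockout replicates 5, 6 and 7, against 94.7, 135.7 and 87.0 CPM in replicates 1, 3 and 4 of wild type. All knockout values were below all wild type values, at a log2 fold of -0.58 ± 0.21 (SE, edgeR adjusted p = 0.637), and it was -0.35 without wild type replicate 3. None of the 8 microglial markers had a positive log2 fold change, with a median of -0.27, and none of them passed by edgeR. Their summed level was lowest in wild type replicate 4, at 22220 CPM. The part of microglia in the Bhlhe41 value was not tested. Exons of Bhlhe41 share 1280 bases, 19% of their length, with those of Gm43909 on the opposite strand, which had at most 2.63 CPM, and reads there are uncertain. Bhlhe40, the gene of its paralog DEC1, was named after its values were seen. It had 8.48, 4.01 and 6.69 CPM in knockout replicates 5, 6 and 7, against 5.25, 1.27 and 0.799 CPM in replicates 1, 3 and 4 of wild type, and passed without wild type replicate 1 (log2 fold change 2.66, edgeR adjusted p = 0.0487).

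The remaining lists held no gene with an unadjusted edgeR p under 0.05. The 4 genes of PAR bZIP factors and Nfil3, which act on D-boxes, had log2 fold changes from 0.14 to 0.45. Nfil3, a repressor at D-boxes, averaged 16.8 ± 1.76 CPM in the libraries labelled knockout and 12.3 ± 2.02 CPM in wild type (SD, n = 3 each; edgeR adjusted p = 0.637). Dbp, an activator at D-boxes and a direct target of CLOCK and BMAL1, averaged 28.8 ± 5.50 CPM in the libraries labelled knockout and 21.6 ± 11.1 CPM in wild type (SD, n = 3 each; edgeR adjusted p = 0.724). Exons of Dbp share 539 bases, 18% of their length, with those of Sphk2 on the opposite strand, so reads there are uncertain too. Sphk2 had 41.0, 40.4 and 56.0 CPM in knockout replicates 5, 6 and 7, against 57.1, 61.0 and 60.0 CPM in replicates 1, 3 and 4 of wild type. The log2 fold change of Dbp was 0.92 without wild type replicate 1 and 0.21 without wild type replicate 3. Of the 8 genes for kinases, ubiquitin ligases and a deubiquitinase that set the stability of PER and CRY, 7 had negative log2 fold changes, none below -0.23. Csnk1e, casein kinase 1 epsilon, which phosphorylates PER, averaged 373.6 ± 3.35 CPM in the libraries labelled knockout and 429.8 ± 11.5 CPM in wild type (SD, n = 3 each), with no overlap and a log2 fold of -0.20 ± 0.13 (SE, edgeR adjusted p = 0.665). Btrc, a ubiquitin ligase subunit for PER, had a log2 fold change of -0.23. Values were 0.63 for Arntl2, a paralog of Arntl, and 0.41 for Timeless, the mammalian relative of a Drosophila clock gene. Arntl2 was at 0.29 without wild type replicate 3 and 0.996 without wild type replicate 1, and Timeless at 0.10 without wild type replicate 1 and 1.25 without wild type replicate 4. The REV-ERB co-repressor genes Hdac3 and Ncor1 had 0.20 and -0.12, and Nampt and Wee1, clock-controlled genes of NAD synthesis and the cell cycle, 0.19 and 0.20. Leaving out 1 library in turn gave 0.10 to 0.34 for Hdac3, 0.02 to 0.34 for Nampt, 0.07 to 0.36 for Wee1 and -0.36 to -0.02 for Btrc.

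The genes nearest in pattern over the 6 libraries to the activator mean and to the repressor mean were found among 9736 tested genes. These lay outside the clock lists and had a mean of at least 10 CPM. Likeness was the root-mean-square difference of centred log2 values, as a description. Hacd2, Lamc1 and Cdc42ep4 were nearest to the activator mean, at 0.07, 0.09 and 0.09. That mean mostly follows Npas2, whose centred values ran from -1.68 to 1.63, against -0.24 to 0.23 for Clock. In wild type replicate 3 Arntl was at 0.42 and Hacd2 at -0.32, so the likeness does not extend to each activator. Sulf2, Plxnb3 and Sirt2 were nearest to the repressor mean, at 0.15 each.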

How the data were processed

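RNA was sequenced in 3 libraries labelled Gtf2ird1-/- and 3 wild type libraries. Each library has 1 deposited file of raw, unnormalized read counts by gene. Per the submitters' processing notes, the authors' processing named Trim Galore 0.60, STAR 2.7, HTSeq 1.31 and build mm10, and per the labels' protocols the libraries were stranded total RNA. No source used here gives the annotation or strand setting. The 5 closing summary lines that name no gene were left out, of which reads outside genes held 40.0% to 58.2% and ambiguous reads 1.94% to 14.5% of all reads. Symbols, exons and coordinates came from GENCODE M21 (GRCm38), which matched 53274 of 53379 identifiers.

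Tests were edgeR's quasi-likelihood F-test (edgeR 4.0.16, R 4.3.3, TMM, default filter by group, robust shrinkage, two-sided), with Benjamini-Hochberg adjustment over 17221 genes and a threshold of 0.05, and the steps were checked on simulated data. Standard errors come from the F statistic. Alternatives used DESeq2 1.42.0, limma 3.58.1, other scalings and filters, and each library left out.

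The text names all 10 members, the 2 genes with the smallest p of each other clock list, Gtf2ird1, Gad1, Gad2 and the nearest genes by pattern, and for each marker list its most abundant gene (Slc1a2 for astrocytes, Slco1c1 for endothelial and mural, Slc17a7 for glutamatergic neurons, Fos for immediate early, Csf1r for microglia, Pdgfra for oligodendrocyte precursors, Mbp for oligodendrocytes, Tubb3 for pan-neuronal). The gene of 1 further list is not reported here. The members and lists were chosen with earlier results of these data known.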

Additional observations from a re-analysis of the deposited data

How the results depend on the processing

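No paired analysis was possible because the replicate numbers of the groups (5, 6 and 7 against 1, 3 and 4) do not overlap. The number of the 10 core clock genes called was 0 in all 16 alternatives. The log2 fold changes of the 10 kept their sign in all of them except that of Clock, which was 0.00141 with DESeq2 size factors, 0.127 with library totals alone, 0.00521 without the filter on low counts, 0.00108 with the DESeq2 test and 0.00614 without ribosomal RNA genes. It was 0.00187 without wild type replicate 4, 0.0995 without knockout replicate 5 and 0.0194 without knockout replicate 7, and its range without 1 library ran from -0.14 to 0.0995. Library totals alone moved the median of all tested genes to 0.11, against -0.03. Ncor1 turned to 0.0162 with library totals alone and to 0.0170 without wild type replicate 4, with a range from -0.23 to 0.0170 without 1 library. Counts of clock genes at an unadjusted p under 0.05 ran from 0 without knockout replicate 5 or 7 to 5 without wild type replicate 1. In that last setting edgeR called 1.85% of all tested genes at the adjusted threshold, against 0.00581% with all libraries. Shares of all tested genes at the unadjusted threshold were not taken in these settings, so the counts are not read as particular to the clock genes.

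Of the 25 other clock genes, 0 to 3 were called when 1 library was left out, the 3 being Rora, Rorb and Bhlhe40 without wild type replicate 1. Over all tested genes, 1 was called higher and 0 lower, and leaving out 1 library gave 1 to 306 higher and 0 to 15 lower. DESeq2 called 15 higher and 6 lower, no filter gave 4 higher and 1 lower, and leaving out both libraries rich in ribosomal RNA, chosen after seeing the data, gave 0 higher. With Rora and Rorb among the activators, the activator mean differed by 0.86 and the excess of repressors over activators by -0.26. A prior of 2 CPM gave 0.33 and 0.21. The causes were not tested. The full ROR element was in 0.384% of all promoter windows and in 1 of the clock genes, again Arntl. Low counts limit Npas2 most, at 4 and 11 counts in 2 libraries.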
